A study of Mus musculus with 16 samples.

Results

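Livers in which ketohexokinase had been knocked down under a high-fat diet were compared with lean livers, to see what still differed from the lean state. The comparison takes the 4 libraries whose treatment label is KHK siRNA and the 4 whose label is Chow control, 8 of the 16 libraries of the series. All 16 came from the livers of male C57BL/6J mice that began their diet at 6 weeks of age and ate it for 10 weeks. Over the last 4 weeks all had injections of siRNA every 2 weeks and gavage. In the inhibitor arm, on a high-fat diet with luciferase siRNA at 10 mg/kg, the gavage was of a KHK inhibitor in methylcellulose. In the other groups it was of methylcellulose alone. The 4 libraries of the inhibitor arm entered the fit of all 16 but are not compared here. The LFD group, whose diet the labels call chow, ate a low-fat diet and received siRNA against luciferase at 10 mg/kg. The KHK siRNA group ate the high-fat diet (HFD) and received siRNA against total KHK at 20 mg/kg instead of the luciferase siRNA. Both siRNAs are short duplexes that direct the breakdown of a matching messenger RNA, and the one against KHK is conjugated to N-acetylgalactosamine, a sugar that hepatocytes take up through the asialoglycoprotein receptor, so that the knockdown is one of hepatocytes. Diet, siRNA target and siRNA dose differ together between the 2 groups and cannot be told apart in their comparison. The 4 HFD libraries, which had the high-fat diet with luciferase siRNA at 10 mg/kg and methylcellulose, are therefore given beside it. Mice of the study received saline or insulin through the vena cava shortly before the liver was frozen, and which of these each library's mouse had is not given by the labels. Each library is 1 mouse, and no labels pair mice between groups.

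Ketohexokinase (KHK) phosphorylates fructose to fructose 1-phosphate in the liver, and the later steps of fructolysis turn fructose 1-phosphate into triose phosphates that feed glycolysis, glucose production and fatty acid synthesis. KHK escapes the feedback that holds glycolysis at phosphofructokinase, so fructose is known as a ready source of carbon for de novo lipogenesis (DNL). Carbohydrate also turns on the genes of DNL through the transcription factor ChREBP (encoded by Mlxipl), and insulin does so through SREBP1c (Srebf1). A fatty liver on a high-fat diet takes up and burns more fatty acid, much of it under the control of the nuclear receptor PPARα.

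Expected counts per library ran from 25572883 to 35125005 in LFD and from 28942052 to 33514313 in KHK siRNA. Values below are counts per 1000000 of the scaled library total (CPM), and changes are log2 fold changes of KHK siRNA over LFD with their standard error (SE), from the quasi-likelihood test of edgeR, with p adjusted by Benjamini-Hochberg over 18335 tested genes. A gene is called where its adjusted p is under 0.05. Of 16 hepatocyte markers edgeR called 0 (median log2 fold change -0.04, with 0 higher and 1 lower at an unadjusted p under 0.05, and 1 lower called by DESeq2), and their summed level was 96705 to 115190 CPM in the LFD libraries and 89688 to 101750 CPM in the KHK siRNA libraries, with albumin the most abundant. The first principal component of the 8 libraries (29.0% of the variance) put the LFD libraries between -40.2 and -19.6 and the KHK siRNA libraries between 26.1 and 33.9. The second (18.5%) spread the LFD libraries from -34.7 (replicate 2) to 44.7 (replicate 1), so the lean group was the less uniform one. LFD replicate 3 stood apart in markers of bile duct and pancreas, with 474 counts of Krt19, 382 of Muc1, 70 of Krt7 and 206 of Ctrb1, beside at most 55, 32, 24 and 2 in any other library of the 2 groups. Without this library 568 genes were called higher and 522 lower in KHK siRNA, beside 870 and 712 with it.

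Khk itself was the most certain difference. Its level was 214, 233, 349 and 269 CPM in the LFD libraries and 11.8, 9.14, 18.1 and 11.5 CPM in the KHK siRNA libraries, which left 4.75% of the lean level. No KHK siRNA library came near the lowest LFD library, and the log2 fold change was -4.39 ± 0.23 (SE, n = 4 against 4, adjusted p = 1.82e-08). The HFD livers stood at 264 ± 39.8 CPM (SD, n = 4), beside 266 ± 59.9 CPM in LFD. In bulk liver, fewer cells of a type and less RNA per cell cannot be told apart.

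Besides Khk, a pair of aldehyde dehydrogenases were the called genes of the fructose pathway. Of its 18 tested genes, which cover transport, fructolysis and the polyol route, 2 were called higher and 1, Khk, lower, against 4.75% of all tested genes called higher and 3.88% called lower. Tkfc, triokinase, which phosphorylates glyceraldehyde, measured 301 to 350 CPM in LFD and 236 to 280 CPM in KHK siRNA. These 2 ranges for Tkfc do not overlap, yet its log2 fold change of -0.32 ± 0.16 had an adjusted p of 0.256.

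Aldh3a2, a fatty aldehyde dehydrogenase that can also oxidize glyceraldehyde, had the larger of these rises. It measured 186, 266, 240 and 249 CPM in the LFD libraries and 608, 706, 598 and 683 CPM in the KHK siRNA libraries. All 4 knockdown livers lay far above all lean ones, with a log2 fold change of 1.46 ± 0.13 (adjusted p = 4.6e-06). The level in HFD livers was 482 CPM, so the knockdown livers were also above HFD (log2 fold change 0.43, adjusted p = 0.034). Aldh7a1, an aldehyde dehydrogenase of lysine breakdown, was higher by 0.31 ± 0.08 (adjusted p = 0.0301), a call that was lost in 7 of the 8 fits that each left out 1 library (highest adjusted p = 0.0963, without KHK siRNA replicate 1). Aldh1a1, which oxidizes retinal, missed the threshold (0.69 ± 0.22, adjusted p = 0.0603) and passed it in 5 of 16 alternative analyses.

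The transporters and the side routes of fructose did not pass the test. Slc2a5 (GLUT5, the fructose transporter) had a log2 fold change of -0.00045 ± 0.34, Slc2a2 (GLUT2) of 0.16 ± 0.17 and Slc2a8 of -0.33 ± 0.15 (adjusted p = 0.197). The hexokinases, which can phosphorylate fructose to fructose 6-phosphate, measured 3.73, 3.22, 2.24 and 3.53 CPM in LFD and 4.65, 3.17, 5.02 and 4.81 CPM in KHK siRNA for Hk2 (0.48 ± 0.24, adjusted p = 0.253). For Hk2 3 of the 4 knockdown libraries exceeded every lean library, and replicate 2 did not. Hk1 (-0.12 ± 0.15), Hk3 (-0.10 ± 0.29) and Hkdc1 (-0.87 ± 0.55) did not pass either, and Hkdc1 was under 1 CPM in every library of both groups. The polyol enzymes Akr1b3, aldose reductase (-0.02 ± 0.17), and Sord, sorbitol dehydrogenase (0.26 ± 0.10, adjusted p = 0.137), and the triose enzymes Adh1 (-0.17 ± 0.10), Aldh2 (0.20 ± 0.11) and Glyctk (0.09 ± 0.13) were not called.

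**Figure D1:**
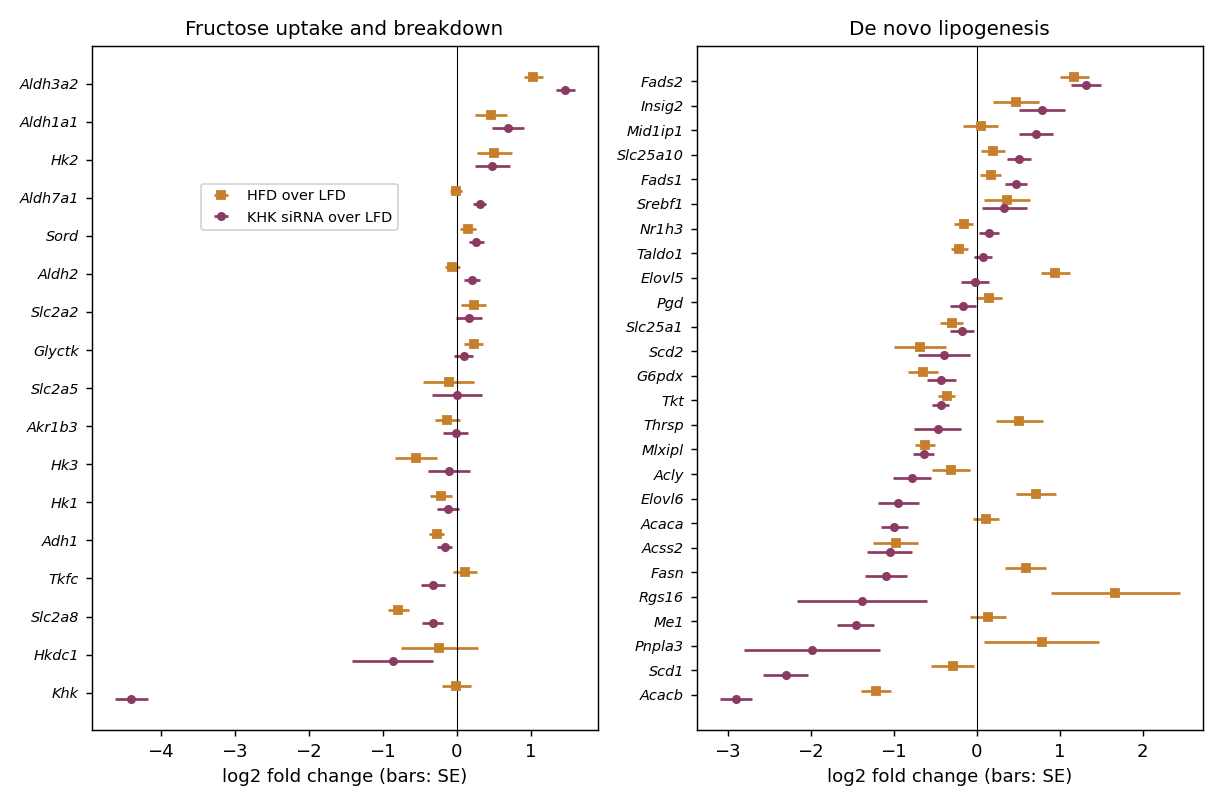
Log2 fold changes (x axis) of the named genes of fructose uptake and breakdown (left) and the tested genes of de novo lipogenesis (right), for KHK siRNA over LFD (circles) and HFD over LFD (squares), with standard errors as bars. Both share the 4 LFD libraries. Khk lies at -4.39 in KHK siRNA and near 0 in HFD, and Acacb, Scd1, Me1, Fasn and Acaca are lower in KHK siRNA.

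Across the genome, 1582 of the 18335 tested genes (8.63%) differed between KHK siRNA and LFD livers, 870 higher (4.75%) and 712 lower (3.88%). The count of called genes in each list below is to be read beside these shares. Of the called genes, 293 of the higher and 163 of the lower ones changed by at least 1 on the log2 scale, and the median size of a called change was 0.64. The groups did not overlap in 2356 genes (12.8%, of which 7.12% of all genes were higher and 5.73% lower), and 1366 genes were both called and without overlap. For HFD against LFD, in the same fit and with the same 4 LFD libraries, 3370 genes were called (18.4%, with 9.58% higher and 8.8% lower), and for KHK siRNA against HFD 2154 (11.7%, with 5.2% higher and 6.55% lower). The 1757 higher and 1613 lower genes of HFD against LFD became 1090 and 911 without LFD replicate 3, and the lower ones 950 without LFD replicate 1. The number called for KHK siRNA against LFD changed with the libraries in the fit: 467 higher and 341 lower genes were left when only the 8 libraries were fitted, and 511 higher and 454 lower without KHK siRNA replicate 3.

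**Figure D2:**
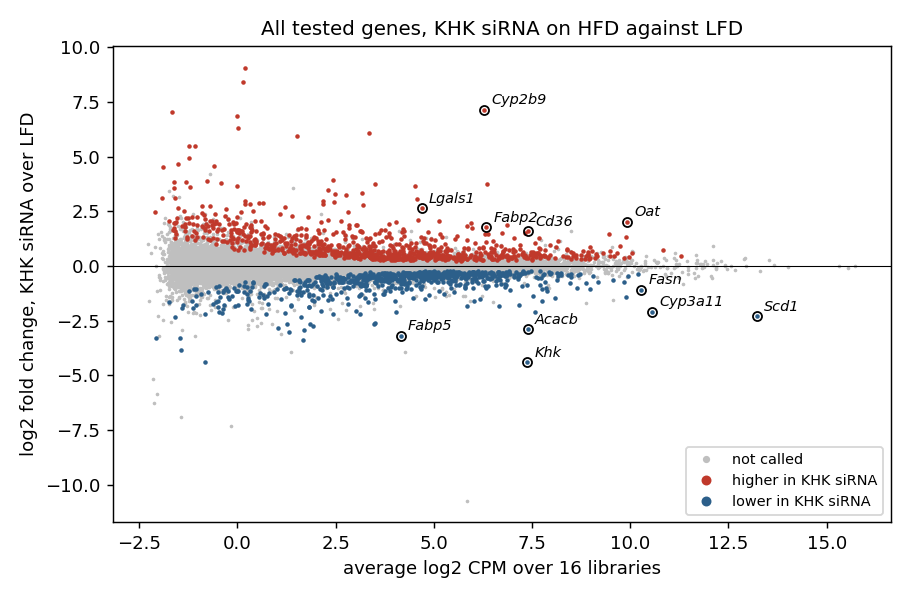
Log2 fold change of KHK siRNA over LFD (y axis) against average log2 CPM over the 16 libraries (x axis) for all 18335 tested genes, with 870 called higher and 712 called lower. Khk and Acacb lie lowest among well-expressed genes, and Scd1 and Fasn are lower at high expression.

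Fatty acid synthesis was the clearest group below lean liver. Of 26 tested genes of DNL and its regulators, 10 were called lower and 4 higher (median log2 fold change -0.43, against -0.0074 over all tested genes), and their summed level was 13072 to 22530 CPM in LFD livers and 6734 to 7183 CPM in KHK siRNA livers. Scd1, the most abundant member, made up most of the sum in LFD livers, so the fall of the sum is largely that of Scd1. In HFD over LFD 5 of the 26 were lower and 3 higher, with a median of 0.12 and a summed level of 15411 CPM on average. The 10 lower genes became 6 without KHK siRNA replicate 1, and 7 to 9 without any other single library.

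Acacb, the acetyl-CoA carboxylase at the mitochondrion whose malonyl-CoA restrains fatty acid entry, measured 251, 222, 269 and 221 CPM in LFD and 25.9, 37.9, 35.0 and 29.7 CPM in KHK siRNA. The knockdown livers held a small part of the lean level in every animal (log2 fold change -2.91 ± 0.19, adjusted p = 3e-07). HFD livers lay between, at 104 CPM, and the knockdown livers were below them too (-1.70, adjusted p = 8.49e-05).

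Scd1, the desaturase that makes oleate, measured 16079, 9286, 8030 and 8883 CPM in LFD and 2718, 2282, 1630 and 1953 CPM in KHK siRNA. LFD replicate 1 stood far above the other lean livers, but even the lowest lean liver was well above every knockdown liver (-2.30 ± 0.27, adjusted p = 9.59e-05). HFD livers were at 8635 CPM, with no call against LFD (-0.29, adjusted p = 0.468).

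The same held in the knockdown livers for 3 enzymes of fatty acid synthesis. Me1, malic enzyme, which supplies NADPH, had 237, 242, 217 and 274 CPM in LFD and 66.9, 114, 78.8 and 93.2 CPM in KHK siRNA (-1.46 ± 0.22, adjusted p = 0.000829). Fasn, fatty acid synthase, had 1471, 1121, 931 and 992 CPM in LFD and 405, 544, 602 and 566 CPM in KHK siRNA (-1.09 ± 0.25, adjusted p = 0.0125). Acaca, the cytosolic acetyl-CoA carboxylase, had 270, 269, 208 and 280 CPM in LFD and 111, 165, 119 and 121 CPM in KHK siRNA (-0.99 ± 0.16, adjusted p = 0.00125). For these 3 genes no knockdown library reached the lean range. Their HFD means of 266, 1695 and 278 CPM for Me1, Fasn and Acaca were not called against LFD (log2 fold changes 0.14, 0.59 and 0.11).

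Less firm falls were those of Elovl6, which lengthens palmitate (-0.94 ± 0.24, adjusted p = 0.024, lost in 4 of the 8 fits without 1 library), Acss2, acetyl-CoA synthetase (-1.05 ± 0.27, adjusted p = 0.0246, lost in 3), Tkt, transketolase (-0.44 ± 0.11, adjusted p = 0.0195, lost in 2) and Acly, ATP citrate lyase (-0.78 ± 0.23, adjusted p = 0.0456, lost in 7). The highest adjusted p of Acly in these fits was 0.136, without LFD replicate 1, that of Elovl6 0.0778 without KHK siRNA replicate 3, that of Acss2 0.0725 without KHK siRNA replicate 4, and that of Tkt 0.0627 without KHK siRNA replicate 1. Thrsp, the thyroid hormone responsive lipogenic protein, measured 88 to 185 CPM in LFD and 54.8 to 137 CPM in KHK siRNA and was not called (-0.47 ± 0.28, adjusted p = 0.358).

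Of the 2 transcription factors, Mlxipl (ChREBP) was lower, with 382, 322, 474 and 361 CPM in LFD and 230, 250, 264 and 243 CPM in KHK siRNA (-0.64 ± 0.12, adjusted p = 0.00393), beside 250 CPM in HFD (-0.62 against LFD). Knockdown and HFD livers differed by -0.02 ± 0.12 for Mlxipl, which was not called (adjusted p = 0.939). Srebf1 measured 135 to 302 CPM in LFD and 160 to 325 CPM in KHK siRNA, ranges that largely overlap (0.33 ± 0.28, adjusted p = 0.529). The table counts genes, so the isoforms of both factors are summed.

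The higher DNL genes were Fads2, the desaturase of polyunsaturated fatty acids, Fads1, Mid1ip1 and Slc25a10. Fads2 measured 592, 304, 342 and 350 CPM in LFD and 895, 916, 1072 and 1073 CPM in KHK siRNA (1.32 ± 0.18, adjusted p = 0.00032), and HFD livers stood at 896 CPM. Here LFD replicate 1 was again the highest lean liver, still below all knockdown livers. The calls of Fads1 (0.47 ± 0.13), Mid1ip1 (0.72 ± 0.21) and Slc25a10 (0.51 ± 0.15) were lost in 7, 6 and 6 of the 8 fits without 1 library.

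**Figure D3:**
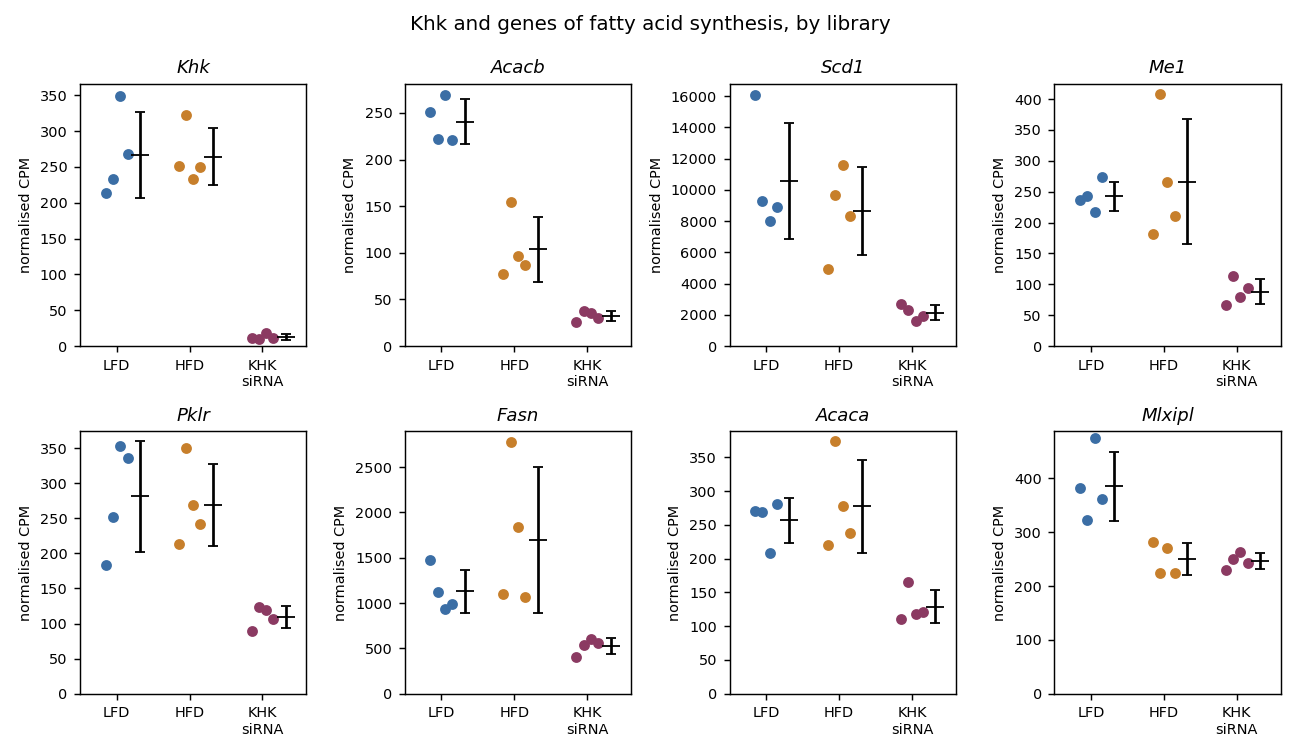
Level in each library (y axis, normalised CPM from 0) of Khk and 7 genes of fatty acid synthesis and its control in LFD, HFD and KHK siRNA livers. Points are single mice, and the bar beside them is the mean with SD (n = 4). In all 8 panels every KHK siRNA library lies below every LFD library, while the HFD libraries of Scd1, Me1, Pklr, Fasn and Acaca reach the lean range.

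Since ChREBP binds carbohydrate response elements, the promoter windows of the lower DNL genes and of Pklr were searched for its letters, and those of the 2 genes with a match to the E-box family are shown. RefSeq windows (GRCm38.p6, 250 bases before to 50 after a start) were found for 10 of these 11 genes, 13 windows in all. Scd1 had no window and was not searched. The full carbohydrate response element was spelled as CACGNG and CNCGTG with 5 bases between them and searched on both strands. Other spellings of the element, and bases outside the windows, were not searched. It was found in 1 gene, Pklr, at bases -170 to -154 from the start, and in 0.0457% of the 32841 windows of the table. The single E-box CACGTG, which can overlap it, was found in 1 of these genes, Mlxipl, at -98 to -93, in the window of Khk, at -71 to -66, and in 7.15% of all windows. The 250 bases before the start are printed, with the matched letters in capitals, for Pklr (chr3:89136373-89136622, + strand) and Mlxipl (chr5:135089640-135089889, + strand).
Pklr: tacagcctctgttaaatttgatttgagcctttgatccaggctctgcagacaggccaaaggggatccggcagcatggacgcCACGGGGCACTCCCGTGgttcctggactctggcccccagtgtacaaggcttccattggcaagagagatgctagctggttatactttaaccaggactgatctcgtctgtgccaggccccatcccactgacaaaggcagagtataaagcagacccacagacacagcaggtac
Mlxipl: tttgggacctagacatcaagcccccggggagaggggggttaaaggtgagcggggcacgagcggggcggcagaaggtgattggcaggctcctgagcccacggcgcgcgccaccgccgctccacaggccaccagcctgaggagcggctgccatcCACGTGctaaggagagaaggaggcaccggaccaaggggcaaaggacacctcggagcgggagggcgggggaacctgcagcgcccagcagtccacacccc
The sterol response element TCACNCCAC was found in another window of Mlxipl (1.24% of all windows hold it), and the direct repeat DR1 (AGGTCA repeated after 1 base), the letters of PPARα, in none of the 10 genes with a window (0.0396% of all windows). A match is a description of letters in these windows and no evidence of binding.

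Glycolysis was lower at several steps. Of 28 tested genes of glycolysis, gluconeogenesis and their control, 6 were called lower and 2 higher (median -0.14). The count of lower genes was 6 or 7 in every fit that left out 1 library, and 5 in the fit of the 8 libraries alone. Pklr, liver pyruvate kinase, measured 183, 252, 354 and 336 CPM in LFD and 89.1, 124, 119 and 106 CPM in KHK siRNA (-1.36 ± 0.23, adjusted p = 0.00181), and HFD livers were at 269 CPM. Gapdh, glyceraldehyde-3-phosphate dehydrogenase, measured 988, 970, 1105 and 1034 CPM in LFD and 580, 630, 620 and 647 CPM in KHK siRNA (-0.73 ± 0.10, adjusted p = 0.000317), and HFD livers were at 1126 CPM. For both genes the lean and knockdown ranges were well apart.

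Smaller falls were measured for Gpi1, glucose-6-phosphate isomerase (-0.64 ± 0.13, adjusted p = 0.00445), Eno1, enolase (-0.52 ± 0.10, adjusted p = 0.00554), Tpi1, triosephosphate isomerase (-0.37 ± 0.09, adjusted p = 0.0156), and Pdk1, a kinase that shuts pyruvate dehydrogenase (-0.71 ± 0.16, adjusted p = 0.0123). Tpi1 lost its call in the fit of the 8 libraries alone (adjusted p = 0.0604). Ldha, lactate dehydrogenase, was higher, with 321 to 488 CPM in LFD and 580 to 716 CPM in KHK siRNA (0.66 ± 0.14, adjusted p = 0.00657). Mpc1, a subunit of the mitochondrial pyruvate carrier, was higher by 0.53 ± 0.14 (adjusted p = 0.0287), a call lost in 5 of the 8 fits without 1 library (highest adjusted p = 0.0864, without LFD replicate 1). So the called genes of this pathway did not move as one group.

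The enzymes that make glucose did not pass the test. Pck1 (-0.03 ± 0.21), G6pc (-0.38 ± 0.29) and Fbp1 (-0.01 ± 0.17), the steps particular to gluconeogenesis, overlapped between groups. Of 19 glycogen genes 1 was called higher and 3 lower, beside 4.75% and 3.88% of all tested genes. Gaa, the lysosomal glucosidase, was lower (-0.54 ± 0.12, adjusted p = 0.0135), while Pygl (-0.36 ± 0.10), Pygb (-0.53 ± 0.16) and Phka2 (0.33 ± 0.08), a pair of phosphorylases and a subunit of phosphorylase kinase, lost their calls in 5, 7 and 3 of the 8 fits without 1 library. In the fit of the 8 libraries alone no glycogen gene was called in either direction.

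Among genes of fatty acid oxidation the calls were higher. Of 33 tested genes of mitochondrial and peroxisomal β-oxidation and ketogenesis, 8 were called higher and 0 lower in edgeR (median 0.27), beside 4.75% and 3.88% of all tested genes. DESeq2 called 10 higher and 1 lower. At an unadjusted p under 0.05 it was 19 higher and 1 lower. The count was 4 in the fit of the 8 libraries alone and 4 without KHK siRNA replicate 4, and 5 to 9 without any other single library. In HFD over LFD 11 of the 33 were higher.

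Cpt1a, carnitine palmitoyltransferase 1, the gate of mitochondrial oxidation, measured 321, 304, 337 and 287 CPM in LFD and 531, 568, 626 and 562 CPM in KHK siRNA (0.87 ± 0.10, adjusted p = 9.59e-05). Bdh1, which makes the ketone body β-hydroxybutyrate, measured 107, 112, 104 and 112 CPM in LFD and 211, 209, 238 and 234 CPM in KHK siRNA (1.04 ± 0.08, adjusted p = 7.65e-07). Both genes were tightly grouped within each diet and did not overlap between them. HFD livers had 516 CPM of Cpt1a and 218 CPM of Bdh1, and the knockdown livers differed from HFD by 0.15 ± 0.10 and 0.04 ± 0.08, neither called. Acadm, the medium-chain dehydrogenase (0.59 ± 0.10, adjusted p = 0.0015), and Hadh (0.47 ± 0.08, adjusted p = 0.00146) were higher as well.

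Ppara itself had 246, 311, 250 and 284 CPM in LFD and 434, 422, 477 and 417 CPM in KHK siRNA (0.68 ± 0.13, adjusted p = 0.00326), beside 478 CPM in HFD. Of 20 genes made up of Ppara and other known PPARα targets 5 were higher and 2 lower, beside 4.75% and 3.88% of all tested genes. The higher ones besides Ppara include Ucp2, a mitochondrial carrier (1.33 ± 0.24, adjusted p = 0.00253), and Vnn1, pantetheinase (0.96 ± 0.21, adjusted p = 0.0112). Its lower genes were Retsat, retinol saturase (-1.07 ± 0.21, adjusted p = 0.00489), and Ctsz, a lysosomal protease (-0.93 ± 0.09, adjusted p = 1.55e-05), so the list did not move in 1 direction. The 5 higher genes were 3 without any 1 of 4 libraries (LFD replicate 2 and KHK siRNA replicates 1, 3 and 4), and 2 in the fit of the 8 libraries alone.

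Among 23 genes of fatty acid uptake, binding and activation, 5 were higher and 2 lower. Cd36, the fatty acid translocase, measured 23.6, 37.6, 19.4 and 45.7 CPM in LFD and 120, 87.4, 94.7 and 75.5 CPM in KHK siRNA (1.58 ± 0.21, adjusted p = 0.000325). Fabp2, a fatty acid binding protein best known from the gut, measured 25.8, 34.2, 25.4 and 28.5 CPM in LFD and 90.4, 112, 88.2 and 99 CPM in KHK siRNA (1.78 ± 0.13, adjusted p = 7.65e-07). Every knockdown liver exceeded every lean liver for both, and the HFD levels were 109 and 82.4 CPM for Cd36 and Fabp2. Fabp5, another binding protein, went the other way, with 75.4, 14.8, 16.9 and 17.3 CPM in LFD and 2.18, 6.96, 2.34 and 2.20 CPM in KHK siRNA (-3.19 ± 0.57, adjusted p = 0.00251). LFD replicate 1 held most of the lean Fabp5, and without that library the change was -2.28 (adjusted p = 0.00444), and without KHK siRNA replicate 2 it was -3.81 (adjusted p = 0.00199). Vldlr, the VLDL receptor (1.37 ± 0.36, adjusted p = 0.0282), and Acot3, an acyl-CoA thioesterase whose family shares sequence (1.96 ± 0.48, adjusted p = 0.019), lost their calls in 4 and 3 of the 8 fits without 1 library. Acot2 was not called (0.31 ± 0.22). The count of 5 higher genes was 2 without LFD replicate 1 or KHK siRNA replicate 3, and 3 without LFD replicate 4 or KHK siRNA replicate 1, and the 2 lower ones were 1 in 6 of the 8 fits without 1 library and in the fit of the 8 libraries alone.

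The called genes of triglyceride assembly and the lipid droplet were mostly higher, while 18 of 24 and 14 of 19 tested genes were not called. Of 24 genes of glycerol phosphate, triglyceride assembly and secretion 6 were higher and 0 lower in edgeR, and DESeq2 called 7 higher and 0 lower. At an unadjusted p under 0.05 edgeR gave 10 higher and 2 lower. Apoc2, the cofactor of lipoprotein lipase, had 108, 86, 102 and 89.4 CPM in LFD and 322, 208, 288 and 261 CPM in KHK siRNA (1.49 ± 0.13, adjusted p = 4.6e-06), and stood above the HFD level of 174 CPM as well (0.63, adjusted p = 0.00519). Apoa4, an apolipoprotein of the gut and of the fatty liver, had 84.1, 92.5, 101 and 81.6 CPM in LFD and 193, 159, 162 and 183 CPM in KHK siRNA (0.96 ± 0.22, adjusted p = 0.0125). That left Apoa4 between lean liver and the 682 CPM of HFD livers (-1.97 against HFD, adjusted p = 0.000118). Gk, glycerol kinase, lay between in the same way, with 85.1 ± 6.87 CPM in LFD, 114 ± 5.05 CPM in KHK siRNA and 173 ± 17.3 CPM in HFD (SD, n = 4 each), and was higher than LFD by 0.42 ± 0.08 (adjusted p = 0.00575).

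Mogat1, a monoacylglycerol acyltransferase, was at 0.0838 to 0.363 CPM in LFD and 2.02 to 3.02 CPM in KHK siRNA (3.31 ± 0.38). Mogat1 passed the filter on low counts through the groups on the high-fat diet, so its values are a description. Gpd1 (0.49 ± 0.15) and Aqp9, the glycerol channel (0.43 ± 0.11), lost their calls in 8 and 5 of the 8 fits without 1 library. Of 19 droplet genes 4 were higher and 1 lower, beside 4.75% and 3.88% of all tested genes. The count of lower droplet genes was 2 without KHK siRNA replicate 1 or 2 and 0 in the fit of the 8 libraries alone. G0s2, the inhibitor of adipose triglyceride lipase, had 55.4, 38.9, 34.4 and 32.3 CPM in LFD and 80.8, 110, 141 and 123 CPM in KHK siRNA (1.50 ± 0.23, adjusted p = 0.000843). Plin4 (1.07 ± 0.20, adjusted p = 0.0038), Cidec (1.92 ± 0.42, adjusted p = 0.0102) and Fitm1 (0.93 ± 0.17, adjusted p = 0.00276), all proteins of lipid droplets or of their formation, were higher, and Plin3 was lower (-0.43 ± 0.10, adjusted p = 0.0131). Plin3 lost its call in the fit of the 8 libraries alone (-0.42, adjusted p = 0.0713). Plin2, the main droplet coat of hepatocytes, had 247 to 366 CPM in LFD and 372 to 452 CPM in KHK siRNA and was not called (0.42 ± 0.15, adjusted p = 0.103). Cidea was at 0 to 0.0838 CPM in LFD and 0 to 0.218 CPM in KHK siRNA, too few counts to compare. Lpgat1, an acyltransferase higher in HFD livers (314 CPM), measured 191 to 213 CPM in LFD and 188 to 223 CPM in KHK siRNA (0.05 ± 0.08, adjusted p = 0.777).

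**Figure D4:**
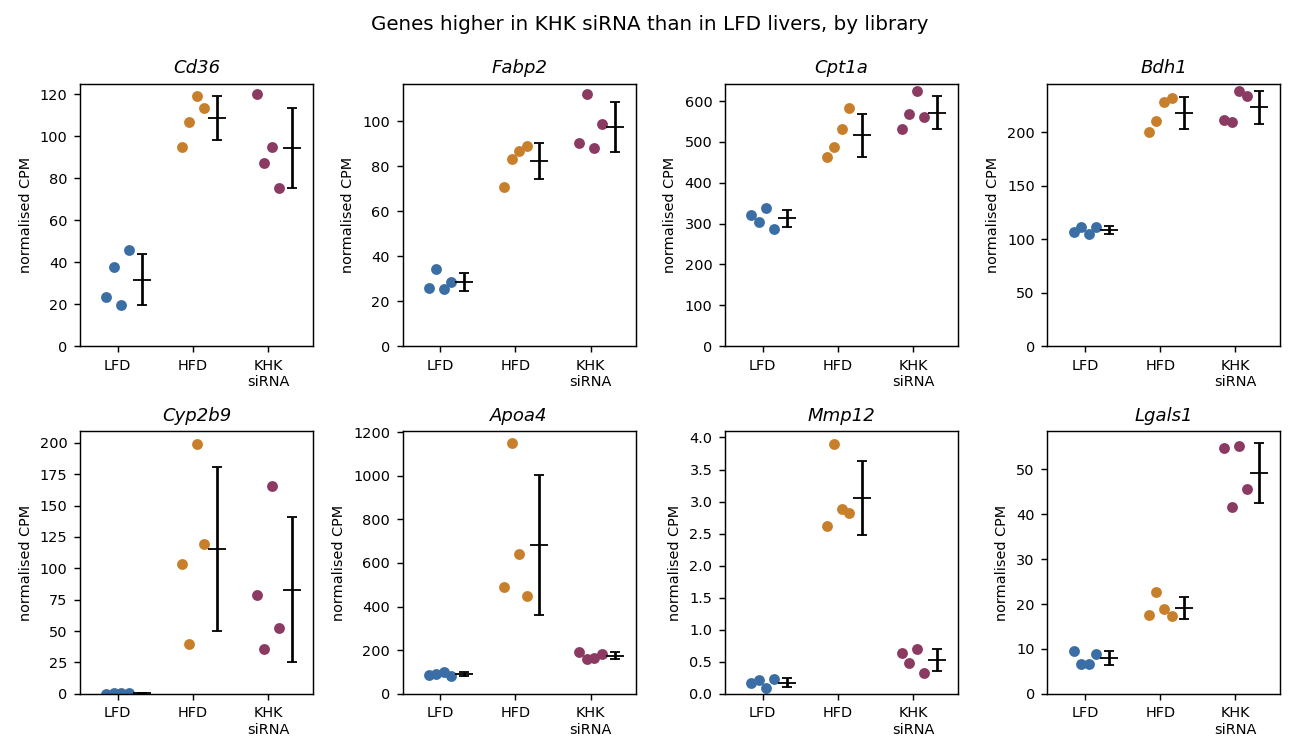
Level in each library (y axis, normalised CPM from 0) of 8 genes called higher in KHK siRNA than in LFD livers, with the HFD livers between them. Points are single mice, and the bar is the mean with SD (n = 4). Cd36, Fabp2, Cpt1a, Bdh1 and Cyp2b9 are near the HFD level, Apoa4 and Mmp12 lie between LFD and HFD, and Lgals1 is above both.

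Of 71 genes of cholesterol, bile acid and sphingolipid metabolism 6 were called (8.45%), beside 8.63% of all tested genes. Of 24 genes of cholesterol synthesis and uptake 0 were higher and 1 was lower, Pmvk, phosphomevalonate kinase (-1.19 ± 0.26, adjusted p = 0.00929). At an unadjusted p under 0.05 it was 1 higher and 3 lower in edgeR, and DESeq2 called 0 higher and 2 lower. Of 23 bile acid genes DESeq2 called 3 lower and edgeR 0, and 3 were higher in edgeR, Abcb4, the phospholipid exporter of bile (0.73 ± 0.11, adjusted p = 0.000935), Akr1d1 (0.59 ± 0.15, lost in 4 of the 8 fits) and Abcc2 (0.38 ± 0.10, lost in 5). The lower bile acid genes were 5 in edgeR with GC and length offsets, 2 without LFD replicate 1 or KHK siRNA replicate 2, and 7 at an unadjusted p under 0.05, and the 3 higher ones were 1 without LFD replicate 1 or KHK siRNA replicate 2 or 3. Cyp7a1, the rate-limiting enzyme of bile acid synthesis, ran from 36.01 to 216 CPM in LFD and from 112 to 183 CPM in KHK siRNA (0.35 ± 0.52, adjusted p = 0.754). Of 24 sphingolipid genes 2 were higher, the ceramide synthase Cers6 (0.69 ± 0.15, adjusted p = 0.0107) and the desaturase Degs1 (0.34 ± 0.08, adjusted p = 0.011), and 0 lower. DESeq2 called 3 higher and 2 lower, and edgeR had 5 higher and 3 lower at an unadjusted p under 0.05. Without LFD replicate 1 or 2, or with GC and length offsets, 1 sphingolipid gene was lower in edgeR.

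Secreted factors of the liver changed in both directions. Of 25 hepatokines and related factors 7 were higher and 3 lower, and the 7 were 7 or 8 in every fit without 1 library. Inhbe, the activin E subunit, had 22.4, 17.7, 16.2 and 28.5 CPM in LFD and 66.8, 63.5, 86.2 and 84.3 CPM in KHK siRNA (1.83 ± 0.18, adjusted p = 2.47e-05), beside 72.9 CPM in HFD. Inhbc, the activin C subunit, had 52.4, 42.4, 37.6 and 35.2 CPM in LFD and 93.6, 100, 78.5 and 105 CPM in KHK siRNA (1.17 ± 0.14, adjusted p = 9.59e-05), above the 58.6 CPM of HFD (0.69, adjusted p = 0.00492). Both liver activin genes were thus clear of the lean range in all 4 knockdown livers. Lect2, a chemotactic hepatokine, rose by 1.48 ± 0.18 (adjusted p = 0.000113), Prg4 by 0.78 ± 0.11 (adjusted p = 0.000553) and Gpc1, a glypican, from 4.01 to 9.56 CPM in LFD to 35.4 to 60.2 CPM in KHK siRNA (3.06 ± 0.25, adjusted p = 2.76e-06).

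Igfbp2, an insulin-like growth factor binding protein, had 328, 269, 490 and 266 CPM in LFD and 94.8, 95.4, 160 and 99.3 CPM in KHK siRNA (-1.59 ± 0.29, adjusted p = 0.00283), close to the 89.8 CPM of HFD. Fetub, fetuin B, was lower, with a log2 fold change of -0.86 ± 0.13 (adjusted p = 0.000705), and so was Inhba, the activin A subunit (-0.99 ± 0.25), lost in 4 of the 8 fits without 1 library. Fgf21, the fasting hormone of the liver, measured 2.35, 1.18, 2.48 and 0.396 CPM in LFD and 3.26, 4.77, 2.93 and 7.06 CPM in KHK siRNA and was not called (1.50 ± 0.49, adjusted p = 0.0701), though the groups did not overlap. Of 18 genes of insulin signalling 0 were higher and 1 was lower, beside 4.75% and 3.88% of all tested genes. The lower gene was Irs2, the insulin receptor substrate (-0.96 ± 0.23, adjusted p = 0.0171), whose call was lost without LFD replicate 3 (adjusted p = 0.0512) and without KHK siRNA replicate 4 (0.0526). The count of lower insulin genes was 2 without LFD replicate 1 or 4 or KHK siRNA replicate 2. At an unadjusted p under 0.05 the insulin genes gave 2 higher and 5 lower in edgeR, and DESeq2 called 1 higher and 3 lower. The part of the injection of insulin or saline in these values was not tested.

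Some genes of sex-dependent liver metabolism differed from lean liver. Of 24 female-biased growth hormone targets 16 passed the filter on low counts, some of them, such as Cyp2b9, Cyp2b13 and Cyp2a4, through the groups on the high-fat diet, so that their count and values are a description. Of these 16 tested female-biased growth hormone targets 8 were higher and 1 lower (median 1.39), and of 22 male-biased ones 1 was higher and 2 lower (median -0.51). The shares over all tested genes were 4.75% higher and 3.88% lower. The 8 higher female-biased genes were 5 without LFD replicate 4, and of the 7 with at least 10 counts in every library 4 were higher and 0 lower. The 2 lower male-biased genes were 4 without KHK siRNA replicate 2, 1 without LFD replicate 1 or KHK siRNA replicate 1, 3 or 4, and 7 with the replicate block and GC and length offsets. In HFD over LFD the same lists gave 10 higher and 2 lower, and 0 higher and 13 lower. Cyp2b9, a female-biased cytochrome, was at 0.0838, 1.003, 0.418 and 0.791 CPM in LFD and at 78.4, 35.7, 166 and 52.2 CPM in KHK siRNA (7.14 ± 0.93), beside 115 CPM in HFD. Without KHK siRNA replicate 3 its log2 fold change was 6.54. Its neighbour in the family, Cyp2b13, had 0 counts in all LFD libraries and 0.762 to 6.24 CPM in KHK siRNA (highest in replicate 3), at least 21.4-fold higher against a floor of 3 counts per library, and at least 8.75-fold without KHK siRNA replicate 3.

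Cyp2a4, a steroid hydroxylase, had 72.6 CPM in KHK siRNA replicate 1 and 3.60, 6.49 and 2.08 CPM in the other knockdown livers, against 0 to 1.09 CPM in LFD. Its log2 fold change of 6.07 ± 1.30 became 3.66 without that library and 7.69 without LFD replicate 1, and these values are a description, since the gene passed the filter on low counts through the groups on the high-fat diet. KHK siRNA replicate 1 also held most of Ntrk2, a neurotrophin receptor, with 34.3 CPM beside 3.24 to 7.46 CPM (3.33 ± 0.62, adjusted p = 0.0032, and 2.10 without it, adjusted p = 0.00302), and of Cyp17a1, with 119 CPM beside 19.7 to 35.2 CPM (2.05 ± 0.56, adjusted p = 0.0319, and 1.08 without it, adjusted p = 0.167). Cyp2a22 (3.67 ± 0.62, adjusted p = 0.00181) was higher and Cyp3a41a (-2.20 ± 0.50, adjusted p = 0.0125) lower. Each may have passed the filter on low counts through the groups where it was high, so these values and p-values are a description. The Cyp2a, Cyp2b and Cyp3a families hold near-identical copies between which reads may be divided, so values of single members are uncertain. Among male-biased genes, C8b, a complement subunit (-0.90 ± 0.19, adjusted p = 0.00851), and Cyp4a12b (-1.84 ± 0.48, lost in 4 of the 8 fits without 1 library) were lower and Susd4, a complement inhibitor, was higher (1.14 ± 0.25, adjusted p = 0.0108).

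Cyp3a11 and Ces2a, abundant genes of drug metabolism, were lower. Of 24 targets of the receptors CAR and PXR 0 were higher and 3 lower, beside 4.75% and 3.88% of all tested genes. At an unadjusted p under 0.05 the list was balanced, with 4 higher and 4 lower in edgeR, and DESeq2 called 0 higher and 3 lower. Cyp3a11, the main cytochrome of drug oxidation in the mouse, had 1983, 3978, 2286 and 3002 CPM in LFD and 530, 719, 683 and 711 CPM in KHK siRNA (-2.09 ± 0.24, adjusted p = 7.81e-05), also below the 1191 CPM of HFD (-0.85, adjusted p = 0.0265). Ces2a, a carboxylesterase, had 326, 290, 321 and 286 CPM in LFD and 91.0, 90.7, 88.7 and 89.0 CPM in KHK siRNA (-1.77 ± 0.13, adjusted p = 7.65e-07), near the 81.8 CPM of HFD. The lean and knockdown ranges of both genes were far apart. Cyp2c55 (-1.08 ± 0.28) lost its call in 4 of the 8 fits without 1 library. Of 24 NRF2 targets 1 was higher and 3 lower, all 4 of them glutathione transferases of the Gstm family, whose sequences are close to each other: Gstm4 (-0.72 ± 0.12, adjusted p = 0.0018), Gstm1 (-0.62 ± 0.15, adjusted p = 0.0178), Gstm3 (-0.94 ± 0.26, adjusted p = 0.0314) and Gstm2 (0.70 ± 0.16, adjusted p = 0.0132). The call of Gstm1 was lost without LFD replicate 1 (adjusted p = 0.0504), that of Gstm2 without KHK siRNA replicate 1 (0.0516), and that of Gstm3 in 5 of the 8 fits.

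**Figure D5:**
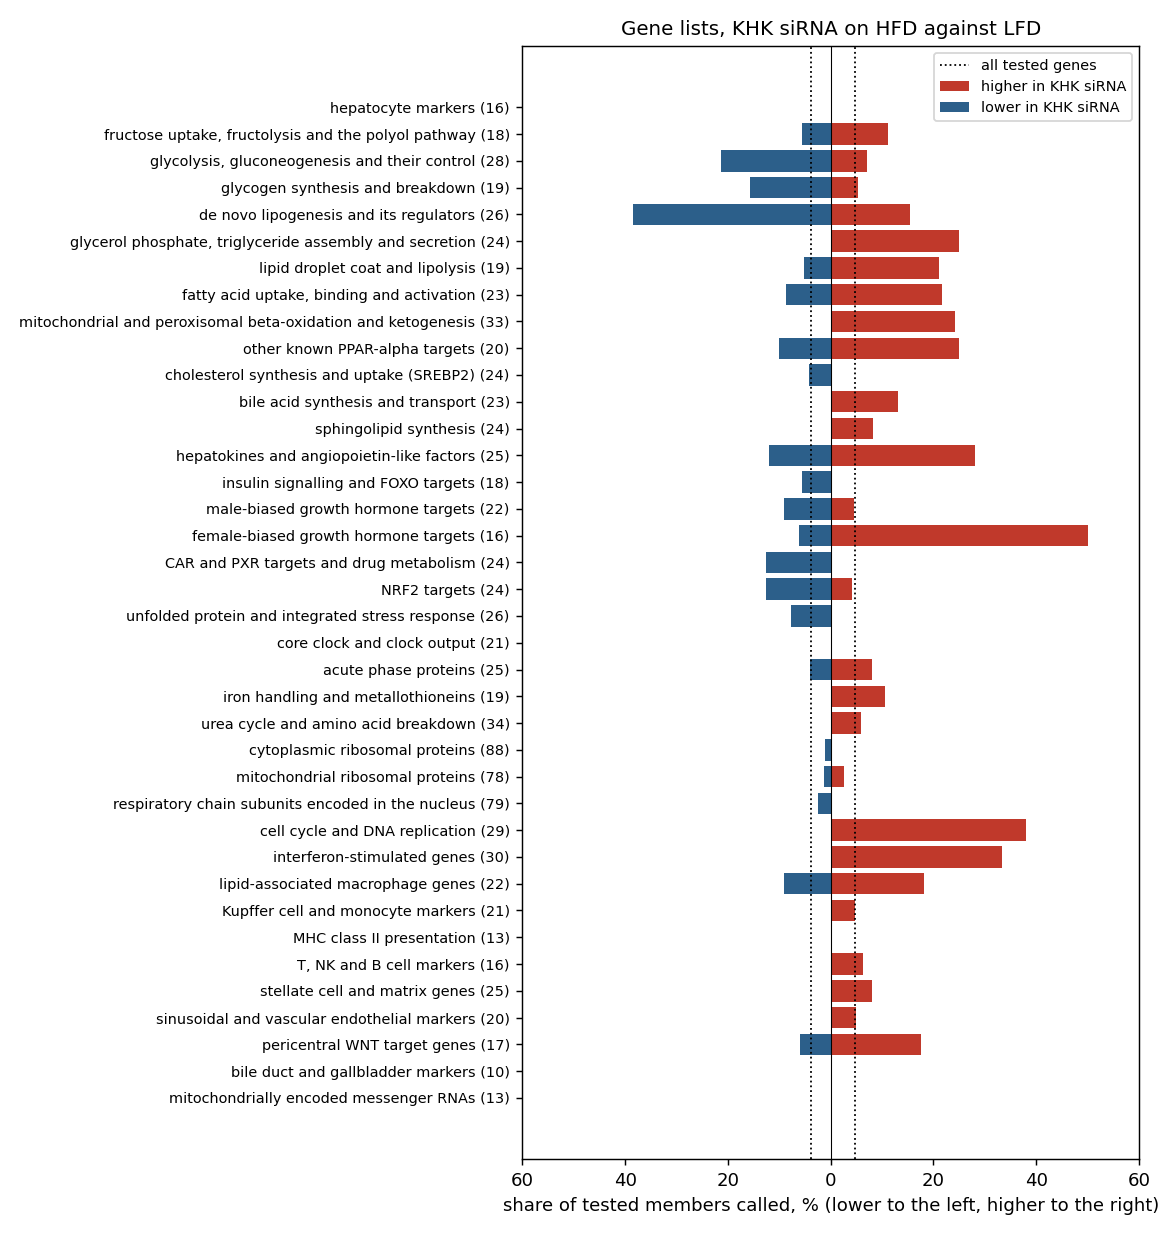
Share of tested members of the 38 gene lists with 10 or more tested genes (y axis, number tested in brackets) that were called higher (right) or lower (left) in KHK siRNA than in LFD livers, in percent (x axis). Dotted lines mark the shares over all tested genes, 4.75% and 3.88%. Several lists reach beyond the dotted line on the right, among them cell cycle, interferon-stimulated genes, hepatokines, fatty acid oxidation and uptake, triglyceride assembly and lipid droplets. Lipogenesis and glycolysis are among those beyond the line on the left. The bar of the female-biased list, 8 of 16, holds members that passed the filter on low counts through the groups on the high-fat diet, and of its 7 genes with at least 10 counts in every library 4 were higher. The cell cycle bar, 11 of 29, also holds such a member, Cdc20. Of the 18 cell cycle genes with at least 10 counts in every library 5 were higher.

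A part of the cell cycle genes was higher than in lean liver. Of 29 tested genes of the cell cycle and DNA replication 11 were higher and 0 lower in edgeR (median 0.94), and DESeq2 called 14 higher and 0 lower. At an unadjusted p under 0.05 edgeR gave 18 higher and 0 lower. Their summed level was 82.5 to 117 CPM in LFD and 141 to 175 CPM in KHK siRNA, and 134 CPM on average in HFD. Ccnd1, cyclin D1, the most abundant of them, had 36.3, 10.0, 12.4 and 11.9 CPM in LFD and 48.6, 48.5, 52.3 and 59.2 CPM in KHK siRNA (1.57 ± 0.34, adjusted p = 0.00868). LFD replicate 1 stood apart from the other lean livers for Ccnd1, and without it the change was 2.18 (adjusted p = 6.79e-05). Cdc20, which activates the anaphase-promoting complex, was at 0.198 to 0.419 CPM in LFD and 1.30 to 2.93 CPM in KHK siRNA (2.85 ± 0.39). Cdc20 passed the filter on low counts through the groups on the high-fat diet, so its values are a description. Mki67 (1.21 ± 0.28, adjusted p = 0.0141) lost its call without KHK siRNA replicate 3 (adjusted p = 0.0511), and Ccna2, cyclin A2 (1.17 ± 0.27, adjusted p = 0.0149), without KHK siRNA replicates 3 and 4 in turn (0.0549 and 0.0596). The count of 11 was 3 without KHK siRNA replicate 3, 5 without LFD replicate 3 or KHK siRNA replicate 4, 6 without LFD replicate 2 and 7 without LFD replicate 4, 5 in the fit of the 8 libraries alone, and 5 of 18 tested genes with at least 10 counts in every library.

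Interferon-stimulated genes gave 10 higher and 0 lower of 30 (median 0.56), and DESeq2 13 higher and 0 lower. An unadjusted p under 0.05 gave 17 higher and 1 lower. Ifit1, an antiviral RNA-binding protein, had 3.27, 5.20, 4.30 and 4.42 CPM in LFD and 13.2, 8.27, 11.4 and 10.96 CPM in KHK siRNA (1.35 ± 0.23, adjusted p = 0.00182), and HFD livers with the control siRNA had 10.9 CPM. Rsad2, viperin, had 7.63, 8.71, 7.05 and 7.84 CPM in LFD and 19.5, 14.9, 16.05 and 16.6 CPM in KHK siRNA (1.10 ± 0.22, adjusted p = 0.0049), and 16.6 CPM in HFD. For both genes the knockdown livers were above the lean ones and differed from HFD by 0.01 on the log2 scale, with SEs of 0.22 and 0.21 for Ifit1 and Rsad2. Oasl2 (0.80 ± 0.17, adjusted p = 0.00719) was also higher, and Usp18 (0.85 ± 0.20, adjusted p = 0.0137) lost its call without KHK siRNA replicate 3 (adjusted p = 0.0528). The count of 10 was 4 without KHK siRNA replicate 1 or replicate 3 and 5 without LFD replicate 3.

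Of 95 markers of the other cells of the liver 5 were called (5.26%), beside 8.63% of all tested genes. Of 21 Kupffer cell and monocyte markers 1 was higher, Cd68 (0.50 ± 0.14, adjusted p = 0.0412, lost in 7 of the 8 fits without 1 library), and their summed level was 419 to 602 CPM in LFD and 464 to 632 CPM in KHK siRNA, with Clec4f the most abundant. Of 13 MHC class II genes 0 were called and their sum was 155 to 292 CPM in LFD and 98.9 to 189 CPM in KHK siRNA. An unadjusted p under 0.05 in edgeR gave 0 higher and 5 lower of them, and DESeq2 called 0. Of 16 lymphocyte markers 1 was higher, Cd4 (1.05 to 1.93 CPM in LFD, 2.06 to 5.07 CPM in KHK siRNA, 1.34 ± 0.27, adjusted p = 0.00579), with sums of 9.26 to 16.7 and 13.9 to 18.3 CPM. Of 25 stellate and matrix genes 2 were higher, Reln (0.49 ± 0.10, adjusted p = 0.00673) and Col14a1 (0.31 ± 0.09, lost in 7 of the 8 fits), with sums of 697 to 801 and 912 to 972 CPM. The count of stellate and matrix genes higher was 4 in DESeq2, 4 with the replicate block and 5 with GC and length offsets, and 9 were higher and 0 lower at an unadjusted p under 0.05. Of 20 endothelial genes 1 was higher, Rspo3 (0.50 ± 0.15, lost in 7). The part of these cells in the other results was not tested.

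Among 22 genes of lipid-associated macrophages, the cells that gather in fatty liver, 4 were higher and 2 lower. Mmp12, macrophage elastase, was at 0.168, 0.215, 0.0896 and 0.231 CPM in LFD and 0.633, 0.473, 0.698 and 0.322 CPM in KHK siRNA (1.58 ± 0.35), well below the 3.06 CPM of HFD (-2.52). Mmp12 passed the filter on low counts through the groups on the high-fat diet, so its values are a description. Atp6v0d2, a proton pump subunit, was higher by 1.74 ± 0.36 (adjusted p = 0.0074), and Trem2, the receptor that marks these cells, was at 0.0989 to 0.629 CPM in LFD and 0.765 to 1.65 CPM in KHK siRNA (1.93 ± 0.49, a call lost in 4 of the 8 fits without 1 library). Trem2 also passed the filter through the groups on the high-fat diet, so its values are a description. The fourth higher gene was Cd36, which hepatocytes also express. The lower ones were Cd9, a tetraspanin (-1.08 ± 0.12, adjusted p = 7.81e-05), and Fabp5, described above. The list's sum of 10829 to 15236 CPM in LFD and 13781 to 15959 CPM in KHK siRNA was mostly Apoe, which hepatocytes make.

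Genes named for other tissues bore on a few libraries. Of 7 tested adipocyte markers 4 were higher, among them Cfd, adipsin, at 0.0358 to 1.11 CPM in LFD and 4.81 to 8.93 CPM in KHK siRNA (3.73 ± 0.68, and 4.42 without LFD replicate 3), Car3, carbonic anhydrase 3 (0.73 ± 0.17, adjusted p = 0.0154), and Pparg (0.57 ± 0.11, adjusted p = 0.00524). Cfd passed the filter on low counts through the groups on the high-fat diet, so its values are a description. Adipoq and Plin1, the defining adipocyte genes, had at most 16 and 15 counts in any LFD library and at most 3 and 1 in any KHK siRNA library, so they were at or near 0 in the knockdown livers where Cfd was high. Car3 lost its call without KHK siRNA replicate 2 (adjusted p = 0.0526). Of 15 pancreatic markers 1 was tested, Cela1, which was higher (1.31 ± 0.18, adjusted p = 0.00035). Ctrb1 and Reg1, which mark pancreas, had 206 and 48 counts in LFD replicate 3 and 0 in every KHK siRNA library. No kidney marker and 1 muscle marker were tested. Of 10 bile duct markers and 4 neutrophil markers edgeR called 0, with 3 lower and 0 at an unadjusted p under 0.05, and DESeq2 called 1 lower and 0. In 6 long nuclear RNAs Neat1 (-1.43 ± 0.33, adjusted p = 0.0142, and -0.76 without LFD replicate 2, which had 3692 CPM beside 901 to 1324 CPM) and Snhg11 (-1.29 ± 0.27, adjusted p = 0.00752) were lower.

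Genes of translation and respiration are read beside the 4.75% higher and 3.88% lower of all tested genes. Of 88 tested cytoplasmic ribosomal protein genes 0 were higher and 1 was lower (median -0.13), where HFD over LFD gave 0 higher and 83 lower (median -0.70). The lower gene was Rpl12, at 168, 135, 158 and 114 CPM in LFD, 96.8, 121, 105 and 103 CPM in KHK siRNA (-0.44 ± 0.11, adjusted p = 0.0233) and 66.6 CPM in HFD, and its call was lost in 5 of the 8 fits without 1 library. With an adjustment for GC content and transcript length 16 ribosomal genes were called lower, and 5 were without LFD replicate 2 or KHK siRNA replicate 2. An unadjusted p under 0.05 in edgeR gave 0 higher and 17 lower, and DESeq2 called 0 higher and 6 lower. The sum of the list was 10626 to 13275 CPM in LFD, 9952 to 11432 CPM in KHK siRNA and 7250 CPM on average in HFD.

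The 13 messenger RNAs encoded in the mitochondrial genome moved with the HFD group: 23663 to 56980 CPM in LFD and 33574 to 40667 CPM in KHK siRNA, with 0 of 13 called (median -0.0046), but 52013 to 97803 CPM in HFD, with 13 of 13 higher. The HFD range overlaps the LFD range and lies above that of KHK siRNA, and its part in the HFD values given beside the comparison was not tested. For KHK siRNA against LFD edgeR also had 0 of the 13 at an unadjusted p under 0.05, and DESeq2 called 0. Of 79 nuclear genes of the respiratory chain 0 were higher and 2 lower in edgeR and in DESeq2 (2 higher and 4 lower at an unadjusted p under 0.05), Ndufs1 of complex I (88.1 to 103 CPM in LFD, 61.7 to 70.1 CPM in KHK siRNA, -0.53 ± 0.08, adjusted p = 0.000558) and Sdhd of complex II (-0.40 ± 0.09, adjusted p = 0.00884). The 2 lower respiratory genes lie near the 3.88% of all tested genes, and were 5 with the replicate block and GC and length offsets. Of 78 mitochondrial ribosomal genes 2 were higher and 1 lower, among them Mrps21 (0.45 ± 0.08, adjusted p = 0.00212). The list had 5 lower with GC and length offsets, 4 higher and 4 lower with these and the replicate block, and 1 to 2 higher and 0 to 3 lower in the fits without 1 library (3 lower without LFD replicate 4). Mrpl27 (0.29 ± 0.08) and Mrps9 (-0.33 ± 0.09) lost their calls in 7 and 5 of the 8 fits without 1 library.

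Few acute phase, iron, stress response and amino acid genes were called, and the counts are to be read beside the shares over all tested genes (4.75% higher and 3.88% lower). Single members are given as values of those genes alone. Of 25 acute phase genes Saa4 (0.79 ± 0.13, adjusted p = 0.00151) and Lcn2, lipocalin 2 (2.09 ± 0.41, adjusted p = 0.00487), were higher and Orm1, orosomucoid (-0.74 ± 0.13, adjusted p = 0.00178), was lower. Of 19 iron genes 2 were higher, Hjv, hemojuvelin (0.62 ± 0.09, adjusted p = 0.000688), and Hamp2, a hepcidin copy that shares sequence with Hamp, at 9.52 to 15.8 CPM in LFD and 82.5 to 291 CPM in KHK siRNA (3.73 ± 0.48, adjusted p = 0.000198). The count of 2 was 4 without LFD replicate 1 and 1 with GC and length offsets. Of 26 genes of the unfolded protein and integrated stress response 0 were higher (DESeq2 0, and 3 at an unadjusted p under 0.05) and 2 were lower, Ern1, the sensor IRE1α (-0.60 ± 0.12, adjusted p = 0.00511), and Ppp1r15a (-0.56 ± 0.14, lost in 4 of the 8 fits). Of 21 clock genes 0 were called by edgeR or DESeq2, with 3 higher and 1 lower at an unadjusted p under 0.05.

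Of 34 genes of the urea cycle and amino acid breakdown 2 were higher and 0 lower. The count of higher ones was 4 with GC and length offsets, with or without the replicate block, and 1 in every fit without 1 library. Without KHK siRNA replicate 1, 1 of these genes was lower. Oat, ornithine aminotransferase, a gene of hepatocytes around the central vein, had 454, 364, 302 and 574 CPM in LFD and 1576, 1654, 2024 and 1618 CPM in KHK siRNA (2.02 ± 0.25, adjusted p = 0.00016), beside 1052 CPM in HFD. Glud1, glutamate dehydrogenase (0.41 ± 0.11), lost its call in all 8 fits without 1 library. Of 17 pericentral genes 3 were higher, Oat, Lect2 and Slc1a2, a glutamate transporter, which was at 140, 179, 147 and 234 CPM in LFD and 327, 386, 463 and 388 CPM in KHK siRNA (1.16 ± 0.19, adjusted p = 0.00162). Gstm3 was the 1 lower pericentral gene. The 3 higher ones were 5 in DESeq2, with the replicate block and with GC and length offsets, and 8 at an unadjusted p under 0.05.

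The largest rises and falls by the naming rule add genes outside these lists. Nptx1, a neuronal pentraxin, had 9, 1, 0 and 0 counts in the LFD libraries and 3.17 to 8.29 CPM in KHK siRNA (5.95 ± 0.58, and 8.57 without LFD replicate 1), beside 5.08 CPM in HFD, and it too passed the filter through the groups on the high-fat diet. The organic anion transporters Slc22a27 (3.93 ± 0.44, adjusted p = 5.8e-05) and Slc22a29 (2.98 ± 0.46, adjusted p = 0.000824) were under 1 CPM in every lean liver and at 4.08 to 8.62 and 2.95 to 6.01 CPM in the knockdown livers, with reads that close copies may share. Both transporters may have passed the filter through the groups on the high-fat diet, so their values and p-values are a description. H19, a fetal noncoding RNA, was higher (3.46 ± 0.87, and 2.79 without KHK siRNA replicate 1), a call lost in 4 of the 8 fits without 1 library. H19 too passed the filter through the groups on the high-fat diet, so its values are a description.

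The naming rule also gave falls, and it took only genes whose groups did not overlap. Srgap3, a GTPase-activating protein, had 10.4, 5.55, 9.14 and 9.06 CPM in LFD and 1.14, 1.31, 0.802 and 1.20 CPM in KHK siRNA (-2.93 ± 0.42, adjusted p = 0.000494). Prss8, the protease prostasin (-2.75 ± 0.29, adjusted p = 3.87e-05), Slc13a2, a citrate and dicarboxylate transporter (-2.68 ± 0.33, adjusted p = 0.000137), Smad9, a mediator of BMP signals at 12.2 to 20.9 CPM in LFD (-2.67 ± 0.39, adjusted p = 0.000558), and Raet1e, a stress ligand (-2.84 ± 0.52, adjusted p = 0.00298), were lower as well. Raet1e may have passed the filter through the groups where it was high, so its values and p-value are a description. In Peg10 (-3.01 ± 0.52), Tcf24 (-3.37 ± 0.72) and Sytl5 (-2.32 ± 0.67) LFD replicate 1 was far above the other lean livers. Without it the changes were -2.19 for Peg10 (adjusted p = 0.0026), -2.55 for Tcf24 (adjusted p = 0.0271) and -1.34 for Sytl5 (adjusted p = 0.186), and Tcf24 was at -4.53 without KHK siRNA replicate 1. Sytl5 lost its call in 5 of the 8 fits.

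Some genes differed from both lean and HFD livers in the same direction, so that the knockdown group stood outside the range of the 2 diets. The 5 higher ones named here were Lgals1, Car14, Fbxo36, Slc22a15 and Hdac3. Apoc2, Aldh3a2 and Inhbc, described above, were also called higher than both. Lgals1, galectin 1, had 9.56, 6.66, 6.54 and 8.87 CPM in LFD, 19.1 CPM in HFD, and 54.7, 41.7, 55.2 and 45.5 CPM in KHK siRNA (2.64 ± 0.16 against LFD, adjusted p = 7.8e-08, and 1.36 against HFD, adjusted p = 8.3e-05). Car14, carbonic anhydrase 14, had 24.7, 25.6, 25.3 and 29.3 CPM in LFD, 21.9 CPM in HFD, and 45.4, 60.5, 48.7 and 52.3 CPM in KHK siRNA (0.98 ± 0.11 against LFD, adjusted p = 4.96e-05). Both were clear of all 8 control livers. Fbxo36 (1.31 ± 0.16), Slc22a15 (0.89 ± 0.11) and Hdac3, a histone deacetylase (0.50 ± 0.08), followed.

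The 5 lower ones named here were Khk, Acacb, Bri3bp, Pak1ip1 and Tbc1d24. Bri3bp, a mitochondrial protein, had 38.2, 36.9, 42.6 and 38.8 CPM in LFD, 34.2 CPM in HFD, and 15.7, 19.96, 16.4 and 18.4 CPM in KHK siRNA (-1.15 ± 0.09, adjusted p = 1.55e-06). Pak1ip1, a nucleolar regulator of PAK1, had 23.8, 20.9, 20.3 and 21.8 CPM in LFD and 10.2, 13.5, 9.77 and 9.67 CPM in KHK siRNA (-1.01 ± 0.10, adjusted p = 1.79e-05), and Tbc1d24 fell from 24.3 to 30.1 CPM in LFD to 12.3 to 14.4 CPM in KHK siRNA (-1.05 ± 0.09, adjusted p = 4.87e-06). The HFD levels of Pak1ip1 and Tbc1d24 were 21.0 and 23.4 CPM, the first within the lean range and the second below it, with no call of either against LFD. The sequence of the siRNA was not used here, so whether any of these transcripts matches it was not tested.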

How the data were processed

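Liver RNA of 16 mice was sequenced, 4 per group. The deposited values are expected counts for 50559 gene symbols, which the authors estimated with RSEM after alignment with STAR to mm39 per the submitters' processing notes, which give no versions. RSEM divides reads that match several genes, so 15.1% of the deposited values are not whole. The study's methods name HTG EdgeSeq, a probe assay that does not yield such counts, so which assay made the table is not settled, nor is strandedness. Totals were 24317111 to 35820234 (median 29570114), and this depth leaves genes under about 1 CPM with few counts. Where all libraries of a group had 0 counts, a floor of 3 counts per library gives a lower bound, for counting error only.

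Counts were rounded. Genes were kept by filterByExpr (minimum count 10, minimum total 15), leaving 18335 of the 33142 symbols counted at all. Genes with few counts in 1 group, such as Cyp2a22, Slc22a27, Slc22a29 and Raet1e, may have passed it through other groups, so their p-values are a description. Scaling was by TMM (factors 0.929 to 1.09). The 16 libraries entered 1 fit of edgeR's quasi-likelihood test (common dispersion 0.0380), and genes were called at a Benjamini-Hochberg adjusted p under 0.05. No 2 libraries of a group agreed within sampling noise (chi-square per gene of at least 19.6). R 4.3.3, edgeR 4.0.16, limma 3.58.1 and DESeq2 1.42.0 were used.

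Named genes are Khk and the fructose genes, the 12 largest called rises and 12 largest called falls (average log2 CPM 1 or more, groups not overlapping), up to 4 called genes per list by p, genes of the study, and 5 genes each way called against both LFD and HFD. The members, lists and rules were chosen with earlier results of these data known, and 21 further genes were named after their values were seen. A few genes that the rule names are not reported here. Lists are described by counts and medians and were not tested as sets. Promoter windows and motif shares come from RefSeq on GRCm38.p6, a different build from that of the counts. GC content and length of 15858 tested genes (86.5%) came from GENCODE M21.

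Alternatives were DESeq2, its size factors in edgeR, no filter, at least 10 counts in every library, the 8 libraries alone, the replicate number as a block, GC and length offsets (a trend with 5 degrees of freedom, over genes of at least 3 log2 CPM), both together, an adjusted p under 0.01, a log2 change of at least 0.5, and each of the 8 libraries left out in turn. The test was run on simulated data for KHK siRNA against LFD with 18060 genes. It recovered 99 of 100 genes changed by 2 on the log2 scale and 78 of 100 changed by 1, with 10 false calls. DESeq2 made 22 false calls on the same data. Whether these figures hold for the measured libraries was not tested.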

Additional observations from a re-analysis of the deposited data

Results flagged for a closer look

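In groups of 4 libraries, the highest or lowest library was set against the other 3 by Dixon's ratio of its gap to the group's range and its critical value at 95%. Of 344 groups of values tested, 29 stood out, where chance gives about 1 in 20.

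Among lean livers LFD replicate 1 stood out most often. It was highest for Scd1 (16079 CPM), Fads2 (592 CPM), Fads1 (567 CPM), Fabp5 (75.4 CPM), Ccnd1 (36.3 CPM), Cyp17a1 (18.7 CPM), Sytl5 (12.5 CPM), Ntrk2 (2.43 CPM), Cyp2a4 (1.09 CPM), Nptx1 (0.377 CPM) and Cidea (0.0838 CPM), and lowest for Sord (802 CPM). LFD replicate 2 was highest for Neat1 (3692 CPM) and lowest for Smad9 (12.2 CPM). LFD replicate 3 was lowest for Acaca (208 CPM) and highest for H19 (0.448 CPM), and LFD replicate 4 was lowest for Cd9 (13.1 CPM).

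Among knockdown livers KHK siRNA replicate 1 was highest for Cyp17a1 (119 CPM), Cyp2a4 (72.6 CPM), Ntrk2 (34.3 CPM) and Tcf24 (1.61 CPM). KHK siRNA replicate 2 was highest for Car3 (3595 CPM), Elovl6 (70.2 CPM), Pak1ip1 (13.5 CPM) and Fabp5 (6.96 CPM). KHK siRNA replicate 3 was highest for Igfbp2 (160.2 CPM), Col14a1 (113 CPM) and Cyp2b13 (6.24 CPM), and KHK siRNA replicate 4 was lowest for Irs2 (29.0 CPM). What sets these libraries apart was not tested.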

How the results depend on the processing

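Khk kept its direction and its call in all 16 alternatives, with log2 fold changes from -4.63 to -4.25. Of the 145 named genes that were called, 99 kept direction and call in every alternative, and of the 25 not called 17 did. The 870 higher and 712 lower genes became 467 and 341 in the fit of the 8 libraries only, 321 and 245 at an adjusted p under 0.01, and 604 and 425 when a log2 fold change of 0.5 or more was also asked for. They became 1030 and 999 in DESeq2, 827 and 760 with its size factors, 671 and 514 with no filter, 776 and 702 with at least 10 counts in every library, and 1044 and 919 with GC and length offsets. Leaving out 1 library gave 511 to 736 higher genes and 431 to 720 lower ones, with fewer libraries in each fit. The causes of the other shifts were not tested. The median log2 fold change of all genes lay between -0.0234 and 0 throughout, so no scaling moved it by over 0.1. Genes near 0 that were not called changed sign. Without 1 library, Slc2a5 ranged from -0.21 to 0.21, Slc2a2 from -0.013 to 0.31, Akr1b3 from -0.11 to 0.096, Hk1 from -0.21 to 0.00032, Hk3 from -0.54 to 0.12, Pck1 from -0.17 to 0.093 and Fbp1 from -0.14 to 0.049. Slc2a5 was also at 0.0021 with no filter and 0.0054 in the fit of 8 libraries. At this depth, changes of genes under about 1 CPM rest on few counts.

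The labels give the replicate numbers of LFD and KHK siRNA no meaning across groups. Deviations of same-numbered libraries correlated at 0.105, 0.0843, 0.0849 and -0.12. Whether equal numbers share an order or a batch was not tested. LFD replicates 1 to 3 matched their own number best, and LFD replicate 4 matched KHK siRNA replicate 2 better. With the replicate number as a block 814 genes were higher and 655 lower, 1008 and 913 with GC and length offsets as well, and Slc2a5 stood at 0.0030 under the block.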
